A study of Homo sapiens with 23 samples.

Results

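Messenger RNA of 9 nutrient transporter genes was followed across the mRNA-seq of the iGLC platform, a microfluidic chip that holds gut and liver cells in separate chambers. The genes were SLC2A1, SLC2A2, SLC2A3, SLC2A5, SLC2A8, SLC2A10, SLC5A1, SLC15A1 and SLC37A4, picked by symbol out of 60564 listed genes, and each symbol matched 1 gene in all 23 libraries. Caco-2 cells, an established line from a human colon carcinoma (11 libraries), and HepG2 cells, an established line from a human liver tumor (12 libraries), were each mono-cultured or co-cultured with the other line. They were kept for 1 day with 1 mM free fatty acids (FFAs, a mixture of palmitic and oleic acid) or without FFAs (control), which gave 8 groups. Co-cultured control Caco-2 cells had 2 libraries and every other group had 3. Each line stands for 1 tumor-derived cell population, and the study's methods report no genetic engineering of either. The labels and the methods of the study differ on the serum in the treatment medium, and both give the same FFAs dose. The labels do not say that the replicates of a group came from separate chips. The study's methods report at least 2 independent experiments for mRNA-seq but do not tie libraries to them. The tests thus measure the spread between these libraries, part of which may be technical.

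Hexoses and short peptides cross membranes by carriers of a few families. SLC2A genes encode GLUT proteins, many of which let glucose or fructose move down its gradient. SLC5A1 encodes SGLT1, which draws glucose in with sodium at the brush border of the small intestine, and SLC15A1 encodes PEPT1, which takes up di- and tripeptides with protons at the same membrane. In enterocytes, GLUT5 (SLC2A5) brings in fructose from the lumen, and GLUT2 (SLC2A2) lets hexoses out toward the blood. Hepatocytes take up and release glucose through GLUT2, and SLC37A4 carries glucose-6-phosphate into the endoplasmic reticulum, where glucose-6-phosphatase frees glucose. GLUT1 (SLC2A1) and GLUT3 (SLC2A3) are high-affinity glucose carriers found in many proliferating cells, whereas GLUT8 (SLC2A8) and GLUT10 (SLC2A10) reside mostly on internal membranes.

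The promoters of SLC2A1, SLC2A2 and SLC2A10 are shown because these were the genes that met the study's criteria for a difference between groups within a line. Each holds 250 bases before and 50 bases after a gene start from RefSeq on GRCh38.p14, read 5′ to 3′ on the gene's strand. They lie at chr1:42958819-42959118 (minus strand), chr3:171026671-171026970 (minus strand) and chr20:46709399-46709698 (plus strand), in that order. Capitals mark matches on either strand to 1 of 3 motifs. The GC box was searched as GGGCGG, which is bound by the SP1 family. The TATA box of core promoters was searched as TATAAA, and the half-site of the hepatic and intestinal factor HNF1 as GTTAAT.
SLC2A1: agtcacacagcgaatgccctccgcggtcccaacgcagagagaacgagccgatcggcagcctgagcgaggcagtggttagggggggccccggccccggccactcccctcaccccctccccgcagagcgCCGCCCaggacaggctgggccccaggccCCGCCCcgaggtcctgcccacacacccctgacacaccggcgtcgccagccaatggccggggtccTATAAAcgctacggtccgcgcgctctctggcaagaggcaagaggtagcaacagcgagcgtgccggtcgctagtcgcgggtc
SLC2A2: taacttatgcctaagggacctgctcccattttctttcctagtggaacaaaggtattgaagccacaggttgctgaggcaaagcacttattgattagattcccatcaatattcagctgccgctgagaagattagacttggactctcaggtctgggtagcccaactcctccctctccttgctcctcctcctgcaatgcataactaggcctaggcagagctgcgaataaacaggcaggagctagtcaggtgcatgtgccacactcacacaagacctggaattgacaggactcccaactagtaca
SLC2A10: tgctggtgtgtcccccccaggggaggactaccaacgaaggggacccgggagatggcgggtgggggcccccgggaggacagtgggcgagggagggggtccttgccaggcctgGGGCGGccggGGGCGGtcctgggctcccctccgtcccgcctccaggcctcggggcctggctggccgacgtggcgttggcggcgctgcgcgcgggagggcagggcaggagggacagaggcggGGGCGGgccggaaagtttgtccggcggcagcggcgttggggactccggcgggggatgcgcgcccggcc
The SLC2A1 window held 2 GC boxes and 1 TATA box. The SLC2A10 window held 3 GC boxes, and the SLC2A2 window held a match to none of the 3 motifs. Of 35116 promoters of the same length, 45.0% held a GC box, 11.5% a TATA box and 6.88% an HNF1 half-site. The share of G and C was 71.0% for SLC2A1, 78.0% for SLC2A10 and 49.0% for SLC2A2, against a median of 58.7%. Promoters of 8 of the 9 genes were in the table. Among the others, GC boxes were found in SLC2A8, SLC5A1, SLC15A1 and 1 of the 2 SLC37A4 windows, the TATA box in SLC2A5 and the other SLC37A4 window, and the HNF1 half-site in SLC5A1. An E-box (CACGTG, in 7.26% of all promoters) was found in none of them, and the overlapping core of the hypoxia-response element (ACGTG, in 21.4%) in SLC2A10 and SLC15A1.

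All values are transcript levels (TPM), which are corrected for transcript length, sum to the same total in each library and can be compared between genes. TPM keep no read number, so the depth of each library is unknown, and a gene without signal is described as listed at 0. Each library had 19259 to 23689 genes with TPM above 0. The labels were checked with marker genes. The intestinal markers CDX2 (60.4 to 136 TPM) and CDH17 (354 to 480 TPM) were high in Caco-2 cells and reached at most 0.73 and 2.75 TPM in HepG2 cells. KRT20 and LGALS4, also intestinal, were low in Caco-2 cells, at most 2.13 and 11.3 TPM. VIL1 and ISX from the same marker list were found in both lines. VIL1 was at 408 to 551 TPM in Caco-2 and 153 to 244 TPM in HepG2 cells, and ISX at 12.8 to 26.9 and 2.16 to 9.24 TPM. Albumin (ALB) was at 20460 to 33859 TPM in HepG2 cells and at 321 to 769 TPM in Caco-2 cells, so the Caco-2 libraries held liver-type transcripts in mono-culture too. The other liver markers were also found in both lines and were higher in HepG2 cells. Their means in Caco-2 and HepG2 cells were 259 and 8987 TPM for AFP, 2171 and 23475 for APOA2, and 131 and 1860 for FGB. AHSG (1314 and 4475 TPM) and SERPINA1 (1291 and 3212 TPM) were closer between the lines.

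The lines differed in which hexose carrier dominated. SLC2A3 was the leading SLC2A gene in all Caco-2 libraries, and SLC2A1 led in all HepG2 libraries. Brush-border carriers were low in Caco-2 cells and at or near 0 in HepG2 cells, and SLC2A2 and SLC2A10 were several-fold higher in HepG2 cells. By limma over all 8 groups, 8 of the 9 genes reached a group mean of 1 TPM and were tested. All 8 differed between the lines at an adjusted p under 0.05, 4 higher and 4 lower in Caco-2 cells, but 79.0% of all 16495 tested genes did so too, 49.8% higher and 29.2% lower. The libraries of the lines did not overlap for 6 of the 8, against 42.7% of all tested genes. SLC15A1 and SLC2A5, which are in both counts, reached a mean of 1 TPM only in Caco-2 groups. The filter thus largely fixed their difference in advance, and their calls add no separate support. Over the tested genes the median difference was 0.236 on the log2 scale, and 63.1% of the genes called were higher in Caco-2 cells. With quantile normalization the median was -0.004, with 6424 genes higher and 6424 lower, and all 8 transporters kept their direction and their call.

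**Figure D1:**
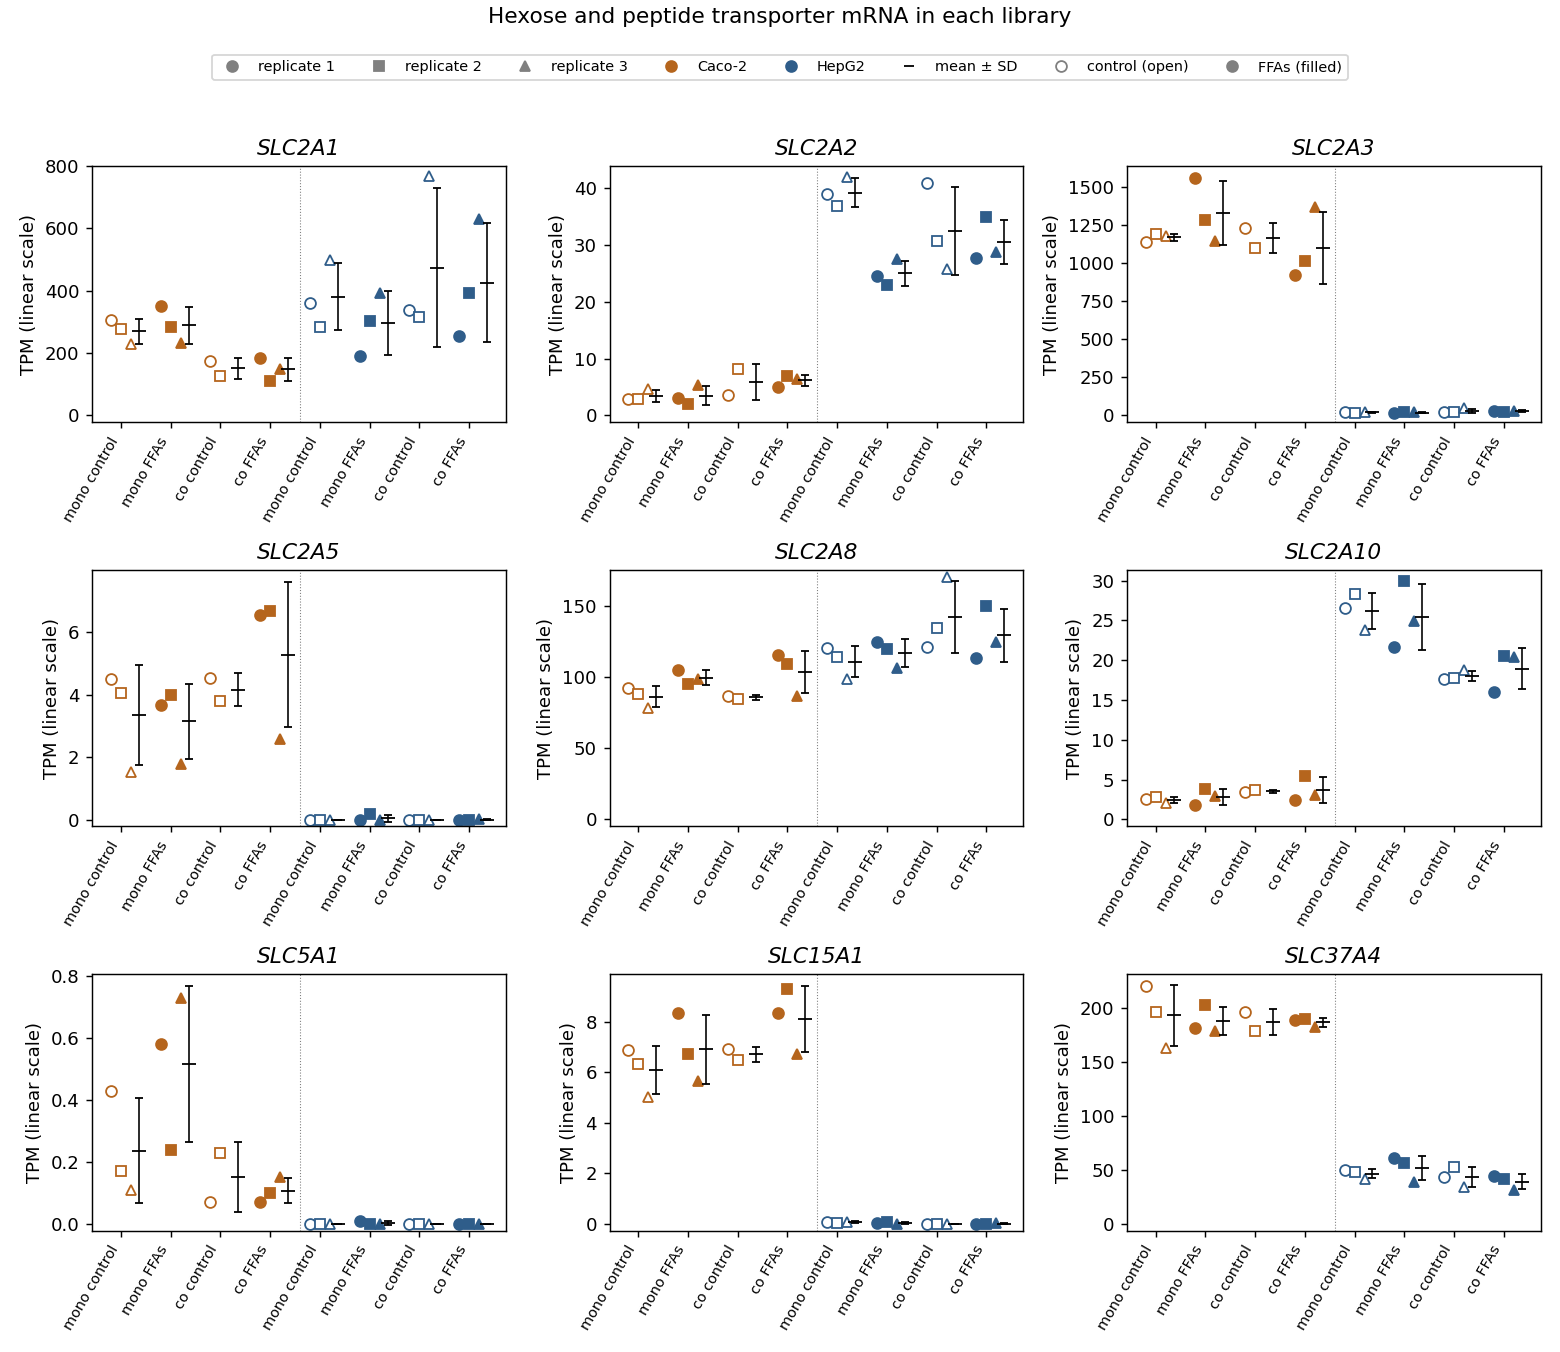
TPM of each of the 9 transporters (vertical axis, linear) in every library of the 8 groups (horizontal axis), Caco-2 left of the dotted line and HepG2 right of it. Symbols are replicates, open for control and filled for FFAs, and black bars are the mean ± SD of the group. SLC2A3, SLC2A5, SLC5A1, SLC15A1 and SLC37A4 are higher in Caco-2 cells and SLC2A2 and SLC2A10 in HepG2 cells, without overlap.

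SLC2A3 (chr12:7919230-8019007, minus strand, GRCh38) was the most abundant of the 9 transporters in Caco-2 cells. Its mRNA was at 1142, 1192 and 1177 TPM in mono-cultured control and at 1563, 1287 and 1149 TPM in mono-cultured FFAs-treated Caco-2 cells. Co-cultured Caco-2 cells had 1234 and 1099 TPM in control and 920, 1018 and 1368 TPM with FFAs. All these libraries overlapped in range, and the mean of 1195 ± 172 TPM (SD, n = 11) ranked 81st among all genes of the line. In HepG2 cells it was at 20.4, 15.7 and 19.3 TPM in mono-cultured control, at 14.1, 19.5 and 19.0 TPM in mono-cultured FFAs-treated, at 19.1, 18.3 and 45.3 TPM in co-cultured control, and at 29.3, 23.1 and 31.1 TPM in co-cultured FFAs-treated libraries. The Caco-2 mean was 52.4-fold above the HepG2 mean, with a log2 difference of 5.70 ± 0.12 (SE, limma on log2(TPM + 1), adjusted p = 6.09e-19). SLC2A14, a near-identical copy next to it, was at 21.9 TPM in Caco-2 and 5.38 TPM in HepG2 cells on average, and how reads were split between the 2 genes cannot be seen in TPM.

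SLC2A1 (chr1:42925353-42958893, minus strand) was high in both lines. Caco-2 cells had 305, 276 and 227 TPM in mono-cultured control and 350, 284 and 233 TPM with FFAs. Co-cultured Caco-2 cells had 173 and 127 TPM in control and 184, 109 and 148 TPM with FFAs. These 5 co-cultured libraries all lay below the 6 mono-cultured ones. HepG2 cells had 361, 284 and 499 TPM in mono-cultured control, 189, 304 and 393 TPM in mono-cultured FFAs-treated, 339, 316 and 768 TPM in co-cultured control and 253, 394 and 631 TPM in co-cultured FFAs-treated libraries. Replicate 3 was the highest in all 4 HepG2 groups, and the groups overlapped. The averaged log2 difference between the lines was -0.87 ± 0.18 (SE, limma adjusted p = 0.000217), the HepG2 mean being 1.8-fold higher. It was not called in the mono-cultured controls alone, where it was -0.47 ± 0.35 (SE, limma adjusted p = 0.253).

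SLC2A3 and SLC2A1 together made up most of the SLC2A mRNA of Caco-2 cells. Of the summed TPM of the 14 SLC2A genes measured, SLC2A3 took 70.3 to 80.1% and SLC2A1 8.2 to 18.7% in Caco-2 libraries. In HepG2 libraries SLC2A1 took 37.7 to 68.5%, SLC2A8 12.6 to 24.9% and SLC2A3 2.41 to 5.36%. The sum itself was 1308 to 2111 TPM in Caco-2 cells and 502 to 1120 TPM in HepG2 cells. The ratio of SLC2A3 to SLC2A1 was 3.75 to 5.17 in mono-cultured control and 4.47 to 4.94 in mono-cultured FFAs-treated Caco-2 cells. In co-cultured Caco-2 cells it was 7.12 to 8.66 in control and 5.0 to 9.34 with FFAs, and in HepG2 cells it stayed between 0.0387 and 0.116.

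**Figure D2:**
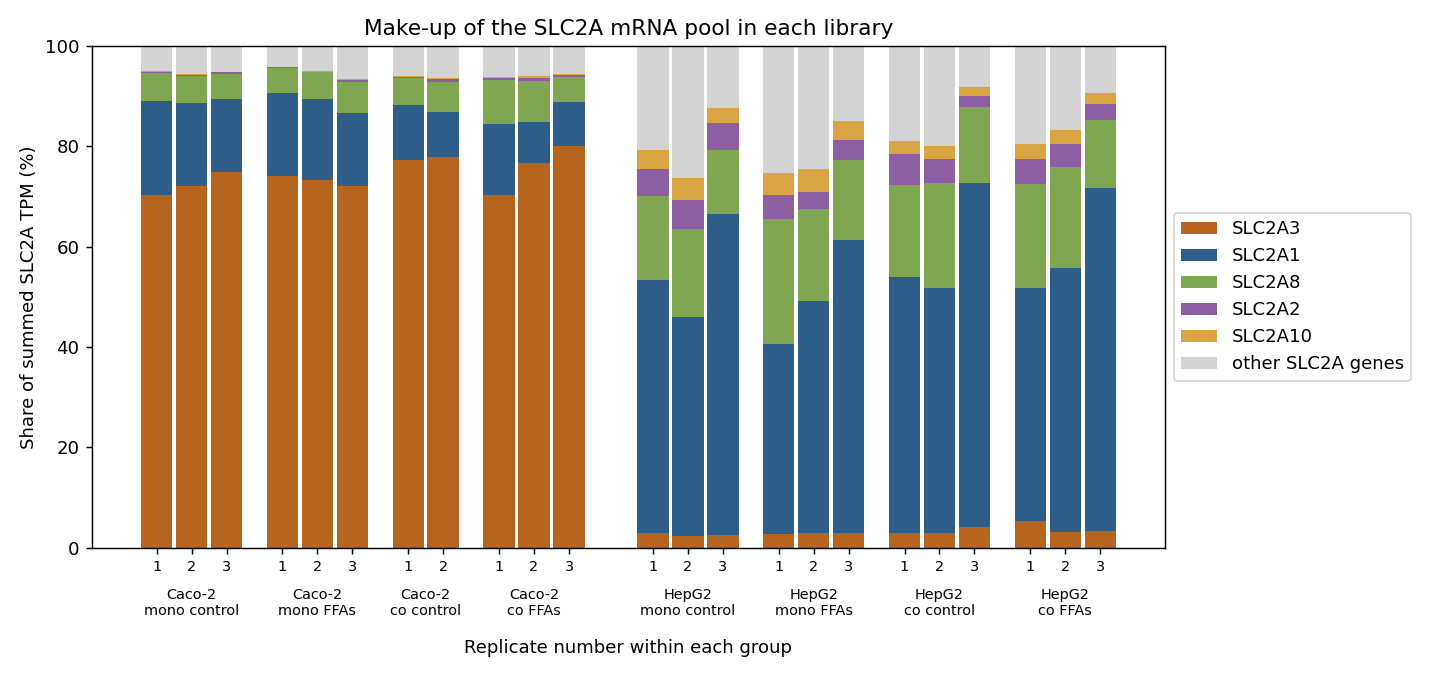
Share of each SLC2A gene in the summed TPM of the 14 SLC2A genes (vertical axis, percent), 1 bar per library, grouped by line, culture and treatment. SLC2A3 fills 70.3 to 80.1% of the Caco-2 bars, and SLC2A1 fills 37.7 to 68.5% of the HepG2 bars.

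SLC2A2 (chr3:170996347-171026743, minus strand), the low-affinity hepatic glucose carrier, was the transporter with a visible step between FFAs and control in mono-cultured HepG2 cells. It was at 38.9, 36.9 and 41.9 TPM in mono-cultured control and at 24.5, 23.04 and 27.5 TPM in mono-cultured FFAs-treated HepG2 cells. Co-cultured HepG2 cells had 40.9, 30.7 and 25.8 TPM in control and 27.8, 35.0 and 28.9 TPM with FFAs. The mono-cultured groups did not overlap and the co-cultured groups did. Caco-2 cells held 2.01 to 8.07 TPM with a median of 4.65 TPM. The HepG2 mean was 6.91-fold above the Caco-2 mean (log2 difference, Caco-2 minus HepG2, -2.58 ± 0.13 SE, limma adjusted p = 5.86e-13).

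SLC2A10 (chr20:46709649-46736347, plus strand), whose loss in humans causes arterial tortuosity syndrome, differed between the lines by about as much. HepG2 cells had 26.5, 28.3 and 23.8 TPM in mono-cultured control and 21.6, 29.9 and 24.9 TPM in mono-cultured FFAs-treated libraries. Co-cultured HepG2 cells had 17.6, 17.7 and 18.8 TPM in control and 16.0, 20.5 and 20.3 TPM with FFAs. All 6 co-cultured libraries were below all 6 mono-cultured ones. Caco-2 cells held 1.76 to 5.49 TPM, and the HepG2 mean was 7.16-fold higher (log2 difference -2.50 ± 0.11 SE, limma adjusted p = 3.5e-14).

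SLC2A8 (chr9:127397138-127408424, plus strand) had the closest levels in the 2 lines. Caco-2 cells had 92.3, 88.3 and 78.1 TPM in mono-cultured control, 105, 95.1 and 98.2 TPM in mono-cultured FFAs-treated, 86.7 and 84.4 TPM in co-cultured control and 115, 109 and 86.9 TPM in co-cultured FFAs-treated libraries. Within each culture the FFAs-treated Caco-2 libraries were above the controls, by a margin that was small in co-culture. HepG2 cells ranged from 98.5 to 170 TPM with a median of 121 TPM. The lines overlapped, and the log2 difference was -0.40 ± 0.07 (SE, limma adjusted p = 2.28e-05). It was -0.63 with median-of-ratios scaling and -0.61 with quantile normalization.

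SLC37A4 (chr11:119023751-119030906, minus strand) was at 163 to 220 TPM in Caco-2 cells, where the SD was 7.92% of the mean, the smallest relative spread of the 9 genes in that line. It was at 30.9 to 60.4 TPM in HepG2 cells, and replicate 3 was the lowest in all 4 HepG2 groups. The Caco-2 mean was 4.2-fold higher (log2 difference 2.06 ± 0.09 SE, limma adjusted p = 2.21e-14). The enzymes that its product feeds showed another pattern. G6PC, the catalytic subunit of liver glucose-6-phosphatase, was at 7.9 to 42.5 TPM in HepG2 cells and at most 0.18 TPM in Caco-2 cells, while the widely expressed G6PC3 averaged 62.2 TPM in Caco-2 and 76.3 TPM in HepG2 cells.

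The 3 brush-border carriers were at low levels in Caco-2 cells and were nearly unseen in HepG2 cells. SLC15A1 (chr13:98683801-98752672, minus strand) had 6.87, 6.34 and 5.02 TPM in mono-cultured control, 8.36, 6.71 and 5.66 TPM in mono-cultured FFAs-treated, 6.92 and 6.49 TPM in co-cultured control and 8.34, 9.28 and 6.71 TPM in co-cultured FFAs-treated libraries of Caco-2 cells. Its Caco-2 groups overlapped, and in HepG2 cells it was listed at 0 in 6 of 12 libraries and reached at most 0.08 TPM. SLC2A5 (chr1:9035106-9088478, minus strand) ranged from 1.54 to 6.66 TPM in Caco-2 cells, with replicate 3 the lowest in each group of 3. It was listed at 0 in 9 of 12 HepG2 libraries and reached at most 0.19 TPM. On the log2(TPM + 1) scale the lines differed by 2.95 ± 0.08 (SE, limma adjusted p = 9.58e-18) for SLC15A1 and by 2.22 ± 0.15 (SE, limma adjusted p = 3.71e-11) for SLC2A5. With a pseudocount of 0.1 these differences were 5.87 for SLC15A1 and 5.06 for SLC2A5. Both genes passed the filter only through Caco-2 groups, so the p-values add nothing to the levels themselves.

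SLC5A1 (chr22:32043261-32113029, plus strand) was the scarcest of the 9. Caco-2 libraries held 0.43, 0.17 and 0.11 TPM in mono-cultured control, 0.58, 0.24 and 0.73 TPM in mono-cultured FFAs-treated, 0.07 and 0.23 TPM in co-cultured control and 0.07, 0.1 and 0.15 TPM in co-cultured FFAs-treated cells. It was listed at 0 in 11 of 12 HepG2 libraries and at 0.01 TPM in the other. No group reached a mean of 1 TPM, so it was tested in no comparison by limma.

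Ordered by group means, only part of the neighbouring groups were apart. For SLC2A3, SLC2A5, SLC2A10, SLC15A1, SLC37A4, SLC2A2 and SLC5A1, every group of the higher line was above every group of the lower line. Within HepG2 cells, the ordered means of SLC2A2 were 39.3 ± 2.52, 32.5 ± 7.73, 30.6 ± 3.91 and 25.0 ± 2.26 TPM (SD, n = 3 each) for mono-cultured control, co-cultured control, co-cultured FFAs-treated and mono-cultured FFAs-treated cells. Only the last was out of range of its neighbour. The ordered means of SLC2A10 in HepG2 cells were 26.2 ± 2.27, 25.5 ± 4.16, 18.9 ± 2.58 and 18.0 ± 0.643 TPM (SD, n = 3 each), and the step lay between mono-culture and co-culture. For SLC2A1 in Caco-2 cells, the means of 289 ± 58.7 and 269 ± 39.0 TPM (SD, n = 3 each) in mono-culture stood apart from 150 ± 32.8 TPM (SD, n = 2) and 147 ± 37.6 TPM (SD, n = 3) in co-culture.

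The effect of FFAs was compared within each line and culture, and no transporter passed the adjusted threshold by limma. In Caco-2 cells, 0 of 8 tested transporters were called in mono-culture (background 0% of 15081 tested genes), in co-culture (0.0199%) and averaged over both cultures (0%). At an unadjusted p under 0.05 these counts were 0, 0 and 1, where 2.61, 2.83 and 3.99% of all tested genes passed. In HepG2 cells, 0 of 6 tested transporters were called in mono-culture, in co-culture and averaged (0% of 14255 tested genes each), with 1, 0 and 1 at an unadjusted p under 0.05 against 2.24, 1.84 and 3.49% of all tested genes. SLC2A2 in mono-cultured HepG2 cells had 25.0 TPM with FFAs and 39.3 TPM in control, a log2 difference of -0.63 ± 0.16 (SE, limma adjusted p = 1). It was the 1 transporter of 6 whose groups did not overlap there, against 6.47% of tested genes. In co-cultured HepG2 cells no transporter was free of overlap, against 5.42% of tested genes, and the difference for SLC2A2 between the FFAs effects in co-culture and mono-culture was 0.56 ± 0.23 (SE, limma adjusted p = 1). The averaged difference of SLC2A2 was -0.35 ± 0.12 (SE, limma adjusted p = 1).

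In Caco-2 cells SLC2A8 was the 1 transporter of 8 without overlap between FFAs and control in mono-culture (7.13% of tested genes) and in co-culture (17.2%). It averaged 102 ± 10.2 TPM (SD, n = 6) with FFAs and 86.0 ± 5.25 TPM (SD, n = 5) in control over both cultures, which then overlapped. The averaged log2 difference was 0.24 ± 0.08 (SE, limma adjusted p = 0.99). Averaged over both cultures, 0 of the 8 Caco-2 and 0 of the 6 HepG2 transporters were free of overlap, against 0.424 and 0.0982% of tested genes. The remaining averaged FFAs differences lay between -0.02 (SLC37A4) and 0.19 (SLC15A1) in Caco-2 cells. In HepG2 cells SLC2A1 had -0.26 ± 0.28 (SE), SLC37A4 -0.01, SLC2A8 -0.03, SLC2A10 0.01 and SLC2A3 0.02. A difference of the FFAs effect between the cultures was called by limma for no transporter (Caco-2 and HepG2, 0 of 8 and 0 of 6 called, background 0% each, 0 and 1 at an unadjusted p under 0.05 against 1.94 and 1.16% of all tested genes). Nor was the averaged FFAs effect called as different between the lines (0 of 8, background 0.0182%, 0 at an unadjusted p under 0.05 against 2.99%).

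**Figure D3:**
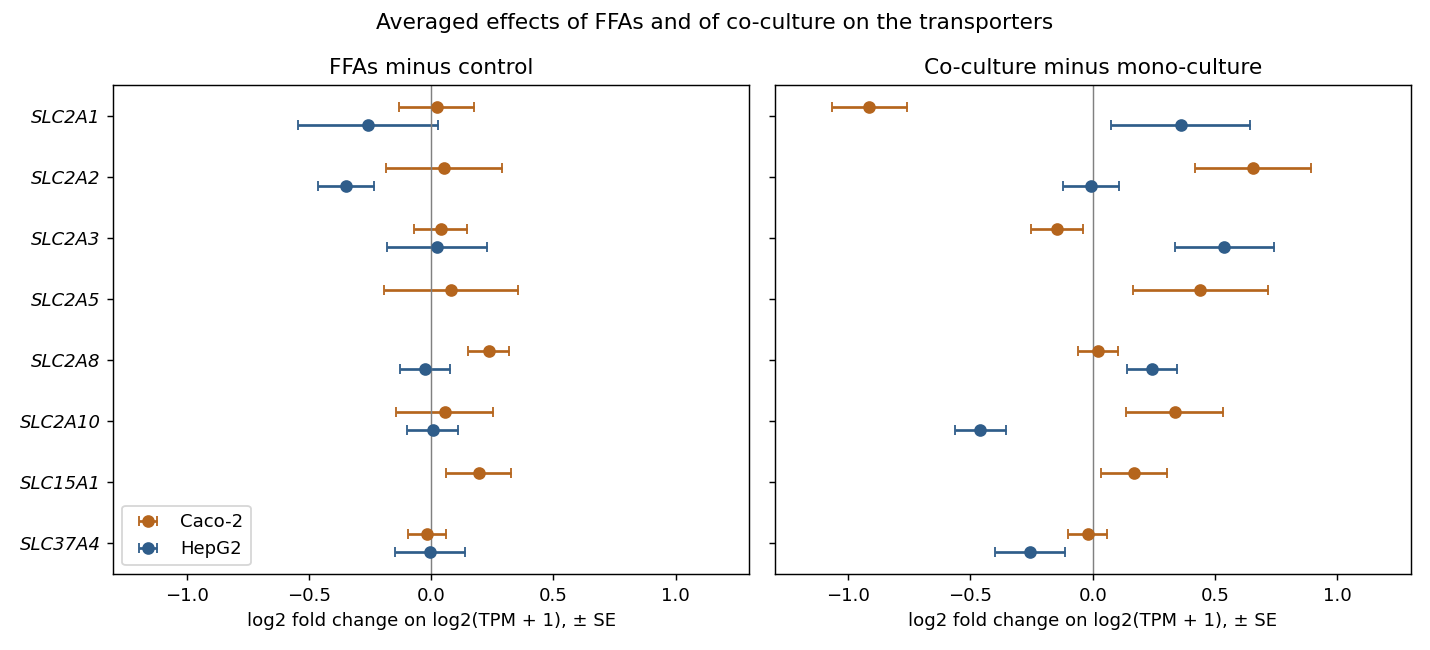
Log2 fold change on log2(TPM + 1) with its SE (horizontal axis) for the tested transporters (vertical axis), FFAs minus control averaged over both cultures (left) and co-culture minus mono-culture averaged over both treatments (right). SLC2A1 in Caco-2 cells (-0.91) and SLC2A10 in HepG2 cells (-0.46) stand farthest from 0 relative to their SE. No point has an adjusted p under 0.05 in this fit, which left the replicate number out. With a replicate block both of these co-culture differences did.

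Co-culture was compared with mono-culture on the same libraries, so these comparisons share groups with those of FFAs. SLC2A1 was lower in co-cultured Caco-2 cells, and SLC2A10 was lower in co-cultured HepG2 cells, without overlap in either case. Neither passed the adjusted threshold by limma in the main fit, which left the replicate number out. With a replicate block both averaged differences were called, SLC2A1 at -0.95 (limma adjusted p = 0.0162) and SLC2A10 at -0.46 (limma adjusted p = 0.0254). The block fits called 60 of 15081 genes in Caco-2 and 492 of 14255 genes in HepG2 cells. In bulk libraries a lower level in every cell and fewer cells with a high level cannot be told apart. In the main fit of Caco-2 cells, 0 of 8 transporters were called in control (background 0.0199%), with FFAs (0%) and averaged over both treatments (0%), and 1, 2 and 2 had an unadjusted p under 0.05, where 5.43, 6.09 and 10.5% of all tested genes did. In that of HepG2 cells, 0 of 6 were called in control (0%), with FFAs (0%) and averaged (0.0561%), and 2, 2 and 3 had an unadjusted p under 0.05 against 7.53, 5.63 and 12.5% of all tested genes.

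SLC2A1 in Caco-2 cells averaged 148 ± 31.3 TPM (SD, n = 5) in co-culture and 279 ± 45.8 TPM (SD, n = 6) in mono-culture, 46.9% lower. The log2 difference was -0.85 ± 0.23 in control (SE, limma adjusted p = 0.867), -0.98 ± 0.20 with FFAs (SE, limma adjusted p = 0.543) and -0.91 ± 0.15 averaged (SE, limma adjusted p = 0.141). Leaving out each library in turn kept the averaged value between -1.02 and -0.80. SLC2A1 was the only one of 8 without overlap over both treatments and with FFAs, where 1.38 and 9.32% of tested genes did not overlap. In control, SLC2A10 was without overlap as well (2 of 8 against 23.1%), with 3.4 and 3.67 TPM in co-culture and 2.08 to 2.82 TPM in mono-culture. In HepG2 cells SLC2A1 averaged 450 ± 203 TPM in co-culture and 338 ± 105 TPM in mono-culture (SD, n = 6 each), and replicate 3 set the upper end of both. The difference between the co-culture effects of the 2 lines on SLC2A1 was -1.27 ± 0.36 (SE, limma adjusted p = 0.107).

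SLC2A10 in HepG2 cells averaged 18.5 ± 1.75 TPM in co-culture and 25.8 ± 3.02 TPM in mono-culture (SD, n = 6 each), 28.4% lower. The log2 difference was -0.51 ± 0.15 in control (SE, limma adjusted p = 0.578), -0.41 ± 0.15 with FFAs (SE, limma adjusted p = 0.848) and -0.46 ± 0.10 averaged (SE, limma adjusted p = 0.125). Over both treatments it was the only one of 6 without overlap, against 1.35% of tested genes. In control 2 of 6 were without overlap (14.9% of tested genes), SLC2A10 and SLC2A8, and with FFAs 3 of 6 were (9.6%), SLC2A10, SLC2A2 and SLC2A3. In Caco-2 cells the averaged SLC2A10 difference was 0.34 ± 0.20 (SE, limma adjusted p = 0.589), and the effects of the lines differed by 0.79 ± 0.22 (SE, limma adjusted p = 0.105). None of the 8 tested transporters was called for a line difference in the co-culture effect by limma in the main fit (background 0.533%), and 4 had an unadjusted p under 0.05, against 14.6% of all tested genes. With the replicate block SLC2A10 was called (0.79, limma adjusted p = 0.0302), where 344 of 16495 tested genes were.

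SLC2A3 in HepG2 cells averaged 27.7 ± 10.1 TPM in co-culture and 18.0 ± 2.49 TPM in mono-culture (SD, n = 6 each), a log2 difference of 0.54 ± 0.20 (SE, limma adjusted p = 0.305). A given share of Caco-2 RNA would add more TPM to this gene than to any other transporter, because it was the most abundant in Caco-2 cells. Relative to the HepG2 mean, the Caco-2 mean was higher for SLC15A1 (322-fold) and SLC2A5 (198-fold) than for SLC2A3 (52.4-fold). The summed TPM of 63 Caco-2 marker genes was read as a percentage of their sum in mono-cultured control Caco-2 cells, and it was 0.127 to 0.242% in mono-cultured and 0.19 to 0.613% in co-cultured HepG2 libraries. The same percentages of the Caco-2 level of SLC2A3 amount to 1.52 to 2.89 TPM and 2.27 to 7.32 TPM. The markers of each line were picked for low levels in mono-cultured controls of the other line. That choice partly fixed the low percentages there. Mono-cultured HepG2 cells had no Caco-2 cells beside them, so their values are a baseline. The co-cultured control libraries had percentages of 0.225, 0.249 and 0.19%, at 19.1, 18.3 and 45.3 TPM of SLC2A3. The co-cultured FFAs-treated libraries had 0.613, 0.282 and 0.542%, at 29.3, 23.1 and 31.1 TPM. The part of such RNA in the difference was not tested. Leaving out each library in turn gave log2 differences of 0.33 to 0.65, the lowest without replicate 3 of co-cultured control. SLC2A2 in Caco-2 cells averaged 6.0 ± 1.74 TPM in co-culture (SD, n = 5) and 3.44 ± 1.28 TPM in mono-culture (SD, n = 6), a log2 difference of 0.65 ± 0.24 (SE, limma adjusted p = 0.398). Leaving out each library in turn gave 0.41 to 0.90, the lowest without replicate 2 of co-cultured control. HepG2 markers (34 genes) reached 0.1 to 0.183% in mono-cultured and 0.0883 to 2.08% in co-cultured Caco-2 libraries, and the highest of these percentages amounts to 0.661 TPM of SLC2A2. The part of such RNA in this difference was not tested. SLC2A8 in HepG2 cells averaged 136 ± 21.1 TPM in co-culture and 114 ± 9.96 TPM in mono-culture (SD, n = 6 each), a log2 difference of 0.24 ± 0.10 (SE, limma adjusted p = 0.366). The averaged differences of SLC37A4 were -0.02 in Caco-2 and -0.26 in HepG2 cells, and SLC15A1 and SLC2A5 in Caco-2 cells had 0.17 and 0.44.

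The study's own criteria were an unadjusted p under 0.05 in a one-way analysis of variance and a 1.2-fold difference between some pair of groups. They were applied over the 4 groups of a line to log2(TPM + 1) of every gene above 0 TPM. The study's methods do not give this scale. Genes near 0 can hardly reach 1.2-fold on it, which can lower the shares over all genes. A group mean of 1 TPM was reached by 15081 of the 31100 genes in Caco-2 and 14255 of the 29942 in HepG2 cells. In Caco-2 cells 1 of the 9 transporters met them, SLC2A1, with 1.97-fold between its extreme groups, where 3.08% of 31100 genes did. In HepG2 cells 2 of 9 met them, SLC2A2 with 1.55-fold and SLC2A10 with 1.43-fold, where 3.56% of 29942 genes did. After Benjamini-Hochberg adjustment the smallest adjusted p among the transporters was 0.901 for Caco-2 and 0.774 for HepG2 cells.

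Related genes from 7 lists (44 genes, 33 tested between the lines) were read beside the transporters. Between the lines 25 were called by limma, 12 higher and 13 lower in Caco-2 cells, and the shares in the lists are to be read against 79.0% of all tested genes called, 49.8% higher and 29.2% lower there. Genes near 0 in the lower line passed the filter only through the other line, among them SLC2A4, SLC15A2, SLC37A1, G6PC, SI and LCT. The filter largely fixed their difference in advance, and their calls add no separate support. Of the other SLC2A genes, 4 of 6 tested were called. SLC2A14 was higher in Caco-2 cells. SLC2A6 (13.2 against 48.4 TPM), the urate carrier SLC2A9 (29.7 against 47.3 TPM) and the insulin-responsive SLC2A4 (0.198 against 2.21 TPM) were lower there, and SLC2A11 was at 16.0 and 16.2 TPM. Of the SLC5 cotransporters 3 of 4 were called. SLC5A2, the renal SGLT2, was higher in Caco-2 cells (3.65 against 1.32 TPM), and SLC5A9 (14.4 against 28.9 TPM) and SLC5A11 (1.37 against 9.97 TPM) were lower. The peptide carrier SLC15A2 was higher in Caco-2 cells (3.45 against 0.186 TPM), SLC15A4 was at 26.5 and 24.8 TPM, and all 3 other SLC37 genes were higher there, SLC37A2 the most (17.0 against 1.8 TPM).

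Of the enzymes that trap or free hexoses, all 7 tested were called, 6 of them lower in Caco-2 cells, against 79.0% called and 29.2% lower over all tested genes. G6PC is in both counts, although it passed the filter only through HepG2 cells. G6PC had a log2 difference of -4.08, the glucokinase regulator GCKR -3.84 (1.41 against 31.9 TPM), the fructokinase KHK -2.72 (17.3 against 117 TPM), HK2 -2.42 (8.58 against 51.0 TPM), the triokinase TKFC -2.19 (79.3 against 376 TPM) and G6PC3 -0.28. The hexokinase HK1 was higher in Caco-2 cells (21.3 against 1.61 TPM). Among regulators and scaffolds 3 of 7 were called. The scaffold PDZK1 (173 against 63.7 TPM) and the sodium-proton exchanger SLC9A3 (6.66 against 5.47 TPM) were higher in Caco-2 cells, and MLXIPL, the glucose-responsive factor ChREBP, was lower (7.65 against 91.7 TPM). TXNIP, which lowers glucose uptake, was at 123 ± 52.6 TPM (SD, n = 11) and 87.6 ± 39.8 TPM (SD, n = 12). Of the luminal hydrolases, all 4 tested were called, but SI and LCT among them passed the filter only through Caco-2 cells. Sucrase-isomaltase SI (9.68 against 0.0125 TPM), lactase LCT (1.51 against 0.00583 TPM) and the dipeptidyl peptidase DPP4 (354 against 99.1 TPM) were higher in Caco-2 cells, and the aminopeptidase ANPEP was lower (4.94 against 175 TPM).

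**Figure D4:**
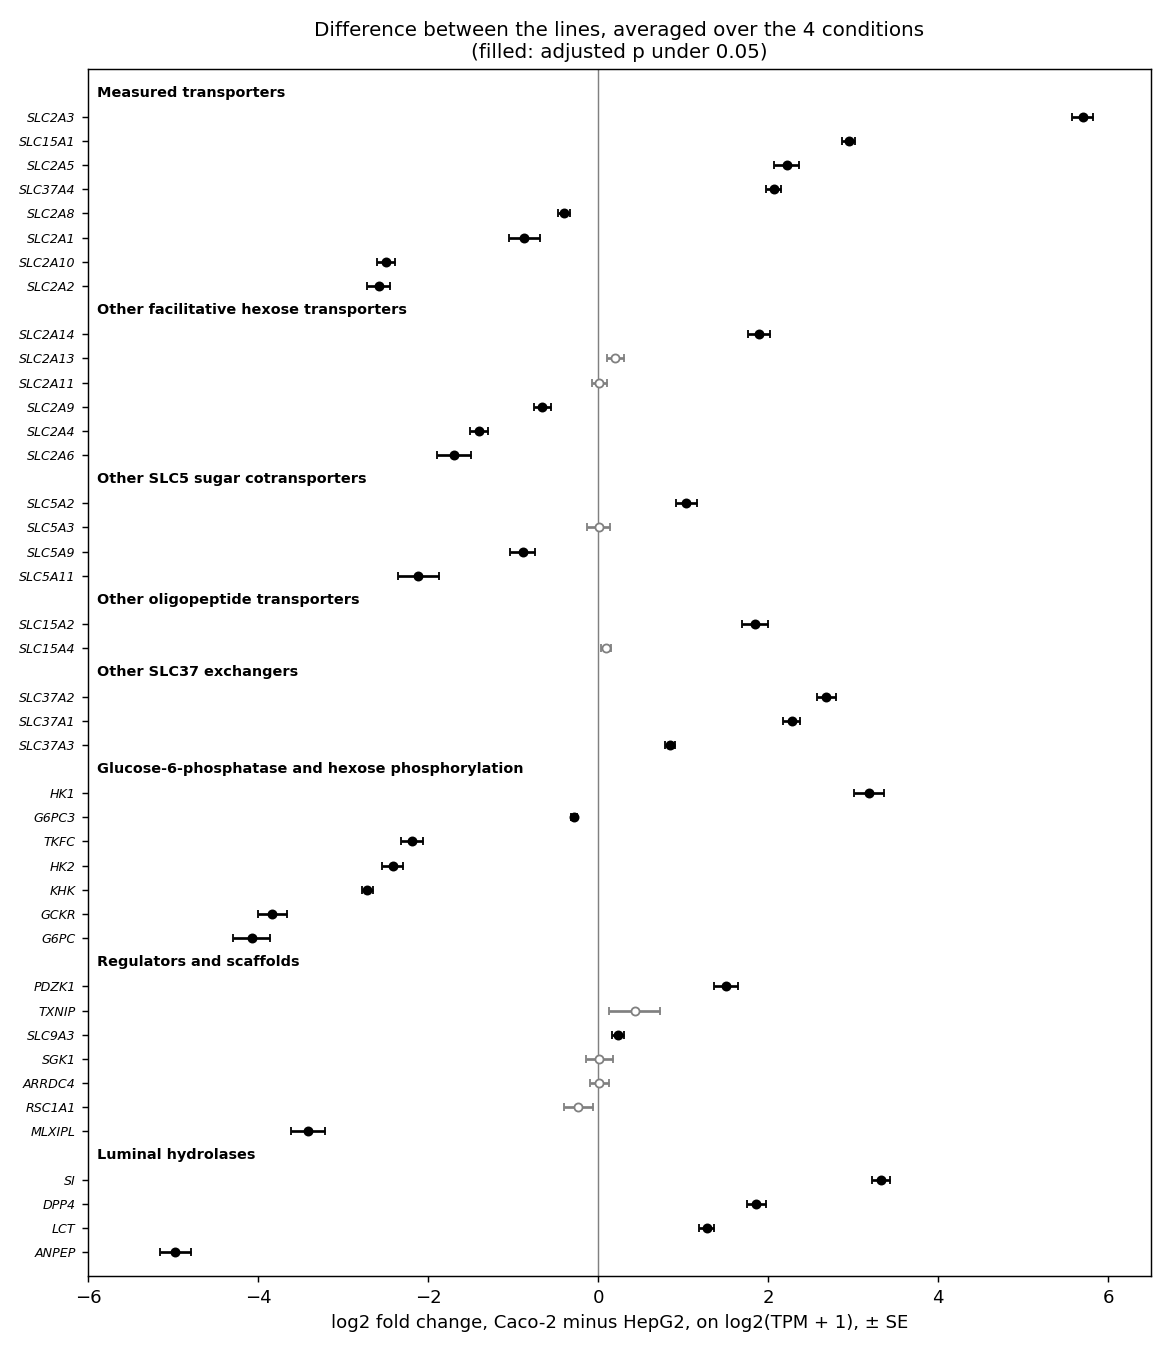
Log2 difference, Caco-2 minus HepG2, averaged over the 4 conditions, with its SE (horizontal axis), for the tested transporters and 7 lists of related genes (vertical axis). Filled points have an adjusted p under 0.05. SLC2A3 at 5.70 is the point farthest to the right, and ANPEP at -4.98 the farthest to the left.

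None of the listed genes was called by limma for FFAs or for co-culture in either line in the main fit, which left the replicate number out. For co-culture averaged over both treatments, an unadjusted p under 0.05 was reached by 5 of 31 tested list genes in Caco-2 and by 6 of 29 in HepG2 cells, against 10.5 and 12.5% of all tested genes. PDZK1 was among them in both lines, with 206 TPM in co-cultured and 146 TPM in mono-cultured Caco-2 cells (log2 difference 0.48 ± 0.11 SE, limma adjusted p = 0.307) and with 47.6 and 79.8 TPM in HepG2 cells (log2 difference -0.74 ± 0.23 SE, limma adjusted p = 0.23). SI in Caco-2 cells had 12.6 and 7.24 TPM (log2 difference 0.70 ± 0.19 SE, limma adjusted p = 0.308). For FFAs averaged over both cultures, these counts were 1 of 31, KHK with 19.4 TPM with FFAs and 14.8 TPM in control Caco-2 cells, and 0 of 29, against 3.99 and 3.49% of all tested genes.

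The genes whose log2(TPM + 1) followed each transporter most closely were read in the line where it was higher, over 11 Caco-2 or 12 HepG2 libraries, as a description only. For SLC2A1 in HepG2 cells these included CD55 (Pearson r = 0.967) and MMADHC (0.966). For SLC2A10 they were MXRA8 (0.959), RAB11B (0.949) and P2RX4 (0.943), and for SLC2A2, whose closest match was looser, AC010809.1 (0.821), PLEKHN1 (0.811) and SOD2 (0.788). For SLC2A8 they were STK4 (0.916), FOXQ1 (0.89) and MRPS18A (0.885). In Caco-2 cells, SLC2A3 was closest to TBC1D7 (0.952), ANKRD1 (0.906) and LSM10 (0.88), SLC15A1 to SMAD1 (0.973), GCHFR (0.959) and HMGN3 (0.955), SLC37A4 to MEP1A (0.96), NT5E (0.957) and DDR1 (0.938), and SLC2A5 to CPS1 (0.932), MSRB2 (0.932) and ACTR1B (0.93). The libraries of a line share their culture, treatment and replicate number, and the best matches were picked from 15081 genes in Caco-2 and 14255 in HepG2 cells.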

How the data were processed

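Gene expression was measured by mRNA-seq (SMART-Seq, polyadenylated RNA) in 23 libraries. The authors deposited 1 table of TPM per library. Per the labels' processing notes and the study's methods, reads from rRNA, tRNA and mitochondria were removed with Bowtie2 2.1.0, STAR 2.7.1a aligned the others to GRCh38 (Ensembl 98), and RSEM 1.3.0 gave the TPM. Depth is unknown, so no counting error is given.

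Values were tested as log2(TPM + 1) with limma 3.58.1 (eBayes with a trend, R 4.3.3), if the gene reached a mean of 1 TPM in some group, with the 4 groups of a line in one fit or all 8 for differences between lines. Benjamini-Hochberg adjustment covered all tested genes, with a threshold of 0.05. Fold changes on this scale understate changes of low genes. Groups and replicate numbers came from the labels. The fits were tested on simulated data with independent noise in each library. Deviations shared by same-numbered libraries were not part of that simulation. Markers for RNA of the other line were genes with 50 TPM or more in all mono-cultured controls of one line and 1 TPM or less in all those of the second. Coordinates come from GENCODE v44 and promoters from RefSeq. Python 3.11.15 was used for the rest.

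All 9 transporters were named. From each list of related genes, the called genes and those with the highest mean TPM were named, and for each transporter the 3 tested genes with the highest Pearson r, of which 1 is not reported here. Beyond this rule, genes with an unadjusted p under 0.05 were named after their values were seen. The transporters and lists were chosen with earlier results of these data known. Alternatives tried were quantile normalization, median-of-ratios scaling, a pseudocount of 0.1, other filters on low values, no trend, a replicate block, only the groups compared and leaving out each library in turn.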

Additional observations from a re-analysis of the deposited data

How the results depend on the processing

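Of the transporter counts by limma, 0 called for FFAs, co-culture or their interaction in either line stayed 0 under every alternative except the replicate block, and the 8 called between the lines ranged from 7 to 9. The 7 came from the mono-cultured controls alone, where SLC2A1 was not called (-0.47, adjusted p = 0.253). None of the 28 transporter differences that were between the lines or had an unadjusted p under 0.05 reversed under any alternative. Of all 130 transporter differences, 12 changed sign with the replicate block, all with an unadjusted p of at least 0.455, among them the averaged FFAs difference in Caco-2 cells of SLC37A4 (-0.02 to 0.01) and SLC2A2 (0.05 to -0.03) and the averaged co-culture difference there of SLC2A8 (0.02 to -0.01). Same-numbered libraries of different groups had correlated deviations above 0.1 in 7 of 15 pairs in Caco-2 (median r 0.088) and 15 of 18 pairs in HepG2 cells (median r 0.305). For differently numbered libraries this held in 6 of 30 (median r -0.119) and 7 of 36 pairs (median r -0.226). No label says what a number marks, so the main fits left it out. Any effect shared by a number stayed in their spread. The closest library of another group had the same number for 5 of 11 Caco-2 and 10 of 12 HepG2 libraries, a hint from the data and not the design. With the replicate block, 1 transporter was called for averaged co-culture in Caco-2 cells (SLC2A1, -0.95, adjusted p = 0.0162), 1 in HepG2 cells (SLC2A10, -0.46, adjusted p = 0.0254) and 1 for the difference between these effects (SLC2A10, 0.79, adjusted p = 0.0302), while calls over all genes went from 0 to 60 and from 8 to 492 in the 2 lines. By the study's criteria, the 1 transporter in Caco-2 cells became 0 with Benjamini-Hochberg adjustment, 2 with the moderated F test and 4 with the replicate block, and leaving out each library gave 1 to 2. The 2 in HepG2 cells became 0 with Benjamini-Hochberg adjustment, and leaving out each library gave 1 to 3, with 1 when any mono-cultured control library or replicate 1 or 2 of the mono-cultured FFAs-treated group was left out. The cause was not tested. TPM keep no depth, so low values such as those of SLC5A1 carry an unknown counting error.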
